A study of Mus musculus with 3 samples.

Results

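Somitic paraxial mesoderm was examined by single-cell RNA-seq of 3 whole wild-type mouse embryos (E8), each sequenced as its own library. A barcode, the droplet tag that stands for 1 cell, was taken as somitic when it held at least 1 UMI (unique molecular identifier, 1 captured transcript) of each of Meox1, Tcf15 and Aldh1a2 and no UMI of Tbx6, Msgn1, Sox2, Tbx1 or Noto. Of 22168 barcodes that passed quality control, 427 met this rule. They were 148 of 6129 barcodes in embryo 1 (2.41%, exact Clopper-Pearson 95% interval 2.05 to 2.83%), 168 of 8116 in embryo 2 (2.07%, 1.77 to 2.40%) and 111 of 7923 in embryo 3 (1.40%, 1.15 to 1.68%). The mean share was 1.96% ± 0.515 (SD, n = 3), and the interval of embryo 3 lay below those of embryos 1 and 2. All 3 embryos were on a C57BL/6 x 129 SvEv background and were wild type, and none was treated. Their stage is given as 0 to 2 somites in the sample labels and as 0 to 1 somite in the protocol. Each whole embryo was dissociated on its own after its extraembryonic tissue had been taken off, so no cell was sorted or dissected out.

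Somites are epithelial blocks that bud in pairs from the anterior end of the presomitic mesoderm and later form vertebrae, ribs, skeletal muscle and dermis. A clock of Notch, Wnt and FGF target genes runs in the presomitic mesoderm, and Fgf8 and Wnt3a made at the tail end keep its cells immature. Retinoic acid, which Aldh1a2 synthesises in the somites, opposes those signals. Meox1 is a homeobox gene of the sclerotome, from which the vertebrae form, and Tcf15 encodes the basic helix-loop-helix (bHLH) factor paraxis, which somites need to become epithelial. Of the genes that had to be absent, Tbx6 and Msgn1 mark presomitic mesoderm, Sox2 the neural plate, Tbx1 cranial and pharyngeal mesoderm, and Noto the node and notochord.

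The genes that chose the barcodes are given here as a description only, without a test. A somitic barcode held a median of 8.5 Meox1 UMIs in embryo 1, 5.5 in embryo 2 and 4 in embryo 3, with a highest value of 30, 20 and 17. The Tcf15 medians were 5, 6 and 4 UMIs, and those of Aldh1a2 were 18, 10 and 7 UMIs. Embryo 3 had the lowest median for all 3 genes. Summed over the somitic barcodes of an embryo and given per 1000000 UMIs of the class (CPM), Aldh1a2 stood at 666, 605.5 and 395 CPM in embryos 1, 2 and 3, Meox1 at 331, 331 and 215 CPM, and Tcf15 at 249.8, 380.5 and 239.8 CPM.

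Most cells with all 3 required genes were kept out by the excluded ones. The 3 required genes were found together in 2098 barcodes, and 953 of these (45.4%) also held Tbx6, 952 (45.4%) Sox2 and 620 (29.6%) Tbx1, the 3 classes overlapping. Tbx6 was the only excluded gene in 345 barcodes, Sox2 in 278 and Tbx1 in 254, while 783 held 2 or more of them. In 143 of the 345, 63 of the 278 and 98 of the 254 the excluded gene was there as a single UMI. Just inside the rule, 45 somitic barcodes had exactly 1 UMI of Meox1, 72 of Tcf15 and 28 of Aldh1a2, and 310 had at least 2 UMIs of each. Just outside it, 96 barcodes lacked Meox1 alone, 203 lacked Tcf15 alone and 29 lacked Aldh1a2 alone.

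**Figure D1:**
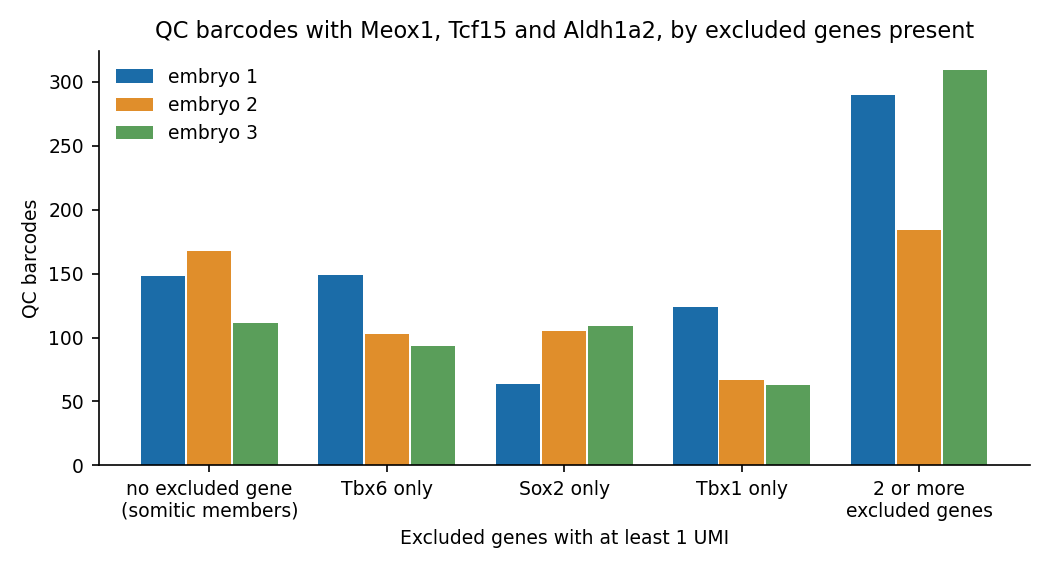
Number of barcodes per embryo that held all 3 required genes, split by which excluded genes they also held, with 1 bar per embryo. The somitic class, without any excluded gene, holds 148, 168 and 111 barcodes, and the class with 2 or more excluded genes holds 290, 184 and 309.

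Cells on either side of the rule differed in genes that the rule did not use. Foxc2, a forkhead factor of early somites and sclerotome, stood at a mean of 122 CPM ± 27.2 (SD, n = 3 embryos, as for the means that follow) in the somitic barcodes. It stood at 98.8 ± 25.4 CPM where Tbx6 was the only excluded gene present, at 117 ± 18.4 CPM where that gene was Tbx1 and at 57.5 ± 6.71 CPM where it was Sox2. Barcodes that lacked Meox1 alone had 31.6 ± 5.23 CPM of Foxc2, and those that lacked Tcf15 alone 32.8 ± 3.71 CPM. Cells with Tbx6 as well were close in Foxc2 and further apart in presomitic genes, with Rspo3, a Wnt agonist, at 429 ± 51.0 against 133 ± 5.88 CPM and the Notch ligand Dll1 at 116 ± 25.3 against 24.0 ± 2.07 CPM. Sox3, a neural gene, stood at 37.5 ± 5.48 CPM in the barcodes with Sox2 alone and at 5.73 ± 3.39 CPM in the somitic barcodes. The lower edge of the rule differed from its core too, since Foxc2 stood at 60.6 ± 12.6 CPM in somitic barcodes with a single Meox1 UMI and at 131 ± 25.1 CPM in those with more. No test was made of these values.

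The 3 libraries differed in depth and in the transcripts of red blood cells and extraembryonic endoderm. They held 207961733, 149341900 and 167503888 UMIs, and the somitic sums held 4258833, 2956322 and 2277066 of them. A somitic barcode had a median of 26024.5, 13886 and 17293 UMIs, close to the 26739, 14465.5 and 16239 of the remaining barcodes of the same embryo. Globin transcripts numbered 49 UMIs in embryo 1, 169187 in embryo 2 and 24544 in embryo 3, where 0, 675 and 169 barcodes were classed as erythroid. In the somitic sums the embryonic globin Hbb-bh1 stood at 0, 137 and 12.7 CPM, and Ttr, a transport protein of extraembryonic endoderm, at 5.40, 484 and 79.0 CPM. Embryo 2 was the highest for both genes. A few barcodes carried these sums, since Hbb-bh1 was found in 62 of the 427 somitic cells with 243 of its 433 UMIs in 1 of them, and Ttr in 117 cells with 72.5% of its 1635 UMIs in 10. Whether they came from free RNA, doublets or the cells themselves was not tested. Of the 8 extraembryonic endoderm genes listed, the summed level in the somitic barcodes was 293, 2492 and 722 CPM, and that of 8 erythroid genes was 0.704, 277 and 21.1 CPM. The libraries shared 59 barcode sequences between any pair, and none was somitic in both.

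The label was checked against 7 somite genes that the rule did not use, and 5 of them passed the test against all other barcodes described below. Against cranial paraxial cells, also described below, Foxc2 and Pax3 overlapped and did not pass. Dmrt2 passed there, but not without embryo 2 or without embryo 3. A UMI of Foxc2 was found in 83.2% ± 9.34 of somitic barcodes (mean ± SD over embryos) and in 18.8% ± 6.84 of all others, and of the related Foxc1 in 73.5% ± 7.24 and 23.4% ± 9.44. Pax3, a paired-box gene of the future dermomyotome, was found in 41.3% ± 6.57 against 10.7% ± 2.85. Tbx18, which marks the anterior side of a somite, was found in 10.1% ± 3.19 against 0.993% ± 0.502, and Dmrt2, a dermomyotome gene, in 10.0% ± 2.25 against 1.17% ± 0.539. In barcodes of extraembryonic endoderm, chosen by Ttr and Apoa1, the shares were 3.46% for Foxc2, 2.57% for Pax3, 0.119% for Tbx18 and 0.375% for Dmrt2. Such cells should lack these genes, and they had median depths of 27062, 16071 and 15727 UMIs. Thinned to 5000 UMIs each, somitic barcodes had Foxc2 in 48.0% ± 2.22, Pax3 in 16.4% ± 6.87, Tbx18 in 3.12% ± 1.21 and Dmrt2 in 6.03% ± 0.577. The other 2 genes were rare, with Meox2, a partner of Meox1, in 2.85% ± 3.50 of somitic barcodes and in none of embryo 2, and Uncx, which marks the posterior side of a somite, in 2.21% ± 1.78.

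For each comparison, UMIs were summed per embryo and class and tested with edgeR at a Benjamini-Hochberg adjusted p of 0.05. Against all other barcodes of the same embryos 565 of 15574 genes passed (3.63% of those tested), 274 of them higher in the somitic cells (1.76%) and 291 lower (1.87%). Whether or not they passed, 1393 of the 15574 genes lay higher in the somitic cells without overlap between the classes, and 2555 lower. With the embryo as a block, since both sums of a pair come from 1 animal, 2963 genes passed, 1170 higher and 1793 lower. Without the block the count fell whichever embryo was left out, and most without embryo 3: 273 genes passed without embryo 1, 210 without embryo 2 and 14 without embryo 3. Of the genes named for this comparison, the calls of Dmrt2, Sim1, Wfdc21, Sparcl1, Pcsk5, Prrx2, Crabp1, Smoc1, Arl4a, Six3, Pou3f1 and Krt8 were also made without embryo 3, and no other gene named here was called then. With the 6% of barcodes highest in doublet score removed, 1264 genes passed, 467 of them higher.

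Among genes with a mean of at least 20 CPM in the higher class, those most raised in the somitic cells included the forkhead genes Foxc2 and Foxc1, the homeobox gene Prrx2 and the protocadherin gene Pcdh8. Foxc2 stood at 152, 116 and 99.3 CPM in somitic cells of embryos 1, 2 and 3 and at 24.9, 14.8 and 16.7 CPM in all others, without overlap. Its log2 fold change was 2.73 ± 0.21 (SE, adjusted p = 0.000585). Foxc1, at 90.6, 86.3 and 64.1 against 26.8, 15.7 and 18.2 CPM, was higher by 2.02 ± 0.20 on the log2 scale. The homeobox gene Prrx2 stood at 204, 149 and 180.5 against 47.0, 43.8 and 41.1 CPM and was higher by 2.03 ± 0.11. None of the 3 genes overlapped between the classes. The protocadherin genes Pcdh8 and Pcdh19, which encode cell adhesion proteins, had log2 fold changes of 3.07 ± 0.30 and 1.89 ± 0.29. Secreted or matrix proteins included Wfdc21 (log2 fold change 3.41 ± 0.44), the protease Pappa (2.92 ± 0.33), Sparcl1 (2.65 ± 0.18), the Nodal and BMP antagonist Cer1 (2.64 ± 0.33), the proprotein convertase Pcsk5 (2.42 ± 0.23), the collagen Col26a1 (2.26 ± 0.15) and Smoc1 (1.82 ± 0.13). The adhesion protein Ntm, the prostaglandin synthase Ptgds, the signalling protein Rasgrp3 and the phosphatase inhibitor Ppp1r1a were also among the 20 most raised genes at that level, with log2 fold changes from 1.79 to 2.58. Among the genes at that level that fell most were Eras, a Ras protein of pluripotent cells (log2 fold change -2.53 ± 0.28), the neural factors Sox3 (-2.20 ± 0.40) and Pou3f1 (-1.91 ± 0.18), and the epithelial claudins Cldn6 (-1.87 ± 0.34) and Cldn7 (-1.85 ± 0.42). The rule left out barcodes with Sox2, a neural plate gene, so the calls of Sox3 and Pou3f1 are a description.

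Genes of somite polarity and segmentation were largely raised. Of 12 tested, 7 were higher and none lower against all other barcodes, with a median log2 fold change of 2.23 beside -0.03 over all genes tested, and 11 were higher with the embryo block. Without embryo 3 none of them passed. Ripply2, a corepressor that ends Tbx6 activity where a new somite border forms, stood at 10.6, 20.6 and 5.71 CPM in somitic cells and at 1.08, 1.82 and 0.659 CPM in all others. The lowest somitic value was above the highest of the others, and the log2 fold change was 3.40 ± 0.51 (adjusted p = 0.0106). Mesp2, the bHLH factor that sets the border and switches on Ripply2, stood at 4.46, 4.06 and 5.71 against 0.617, 0.469 and 0.275 CPM, with a log2 fold change of 3.38 ± 0.39 (adjusted p = 0.0035). Tbx18 stood at 7.51, 6.43 and 3.51 against 0.701, 0.427 and 0.372 CPM, with a log2 fold change of 3.59 ± 0.38. None of these groups overlapped. Ripply1 (2.70 ± 0.39), Cer1, Pcdh8 and the Notch ligand Dll3 (1.02 ± 0.22) were the other members that rose. Uncx stood at 0.235, 2.71 and 1.32 against 0.445, 0.385 and 0.293 CPM, which overlap, and passed only with the block (adjusted p = 0.031), as did Mesp1, the Eph receptor gene Epha4 and Dll1. Lfng, a glycosyltransferase that tunes Notch, did not pass in either fit (log2 fold change 0.48 ± 0.33).

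Genes of the dermomyotome, the part of a somite that forms muscle and dermis, were raised against all other barcodes, whereas muscle genes were absent or rare. Dmrt2 stood at 15.7, 17.3 and 11 CPM in somitic cells and at 0.842, 0.966 and 0.531 CPM in all others, and its log2 fold change was 4.26 ± 0.30 (adjusted p = 0.000407). Sim1, a bHLH-PAS factor of the lateral dermomyotome, stood at 18.5, 14.9 and 7.90 against 1.39, 1.11 and 0.751 CPM and was higher by 3.72 ± 0.34. Pax3 stood at 23.5, 43.6 and 22.0 against 6.47, 8.17 and 5.26 CPM and was higher by 2.18 ± 0.28. None of the 3 overlapped between classes, and the homeobox gene Six4 (0.81 ± 0.17) also rose. In all, 5 of 9 tested members were higher and none lower, with a median log2 fold change of 1.88. Eya1, a transcriptional cofactor (0.93 ± 0.27), and Meox2 (3.87 ± 0.91, at 2.82, 0 and 0.878 CPM) passed only with the block, with adjusted p values of 0.00072 and 7.1e-06. The myogenic factor Myf5 had 1 UMI over all 427 somitic cells, Myod1 none, Lbx1 1, En1 3 and Pax7 5.

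In the sclerotome list early genes were raised and the defining later ones had few or no UMIs. Foxc2, Foxc1, the bHLH factor Twist1 (209.7, 150.2 and 151 against 65.3, 60.8 and 61.3 CPM, log2 fold change 1.47 ± 0.12) and the microfibril gene Fbn2 (1.19 ± 0.13) were higher. Sox9, a factor of cartilage precursors, was lower, at 12.7, 9.81 and 8.78 against 25.4, 18.3 and 18.5 CPM (log2 fold change -0.94 ± 0.19). The counts were 4 higher and 1 lower of 8 tested, with a median log2 fold change of 1.25. Pax1 and Nkx3-2, the defining genes of the ventral sclerotome, had no UMI in any somitic cell. All other barcodes held 24 UMIs of Pax1 and 1 of Nkx3-2, so a difference was not detectable at this depth. Pax9 stood at 1.64, 1.35 and 0.878 against 4.98, 3.23 and 2.12 CPM and was lower only with the block (adjusted p = 0.002). Mfap2 was higher only with the block.

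**Figure D2:**
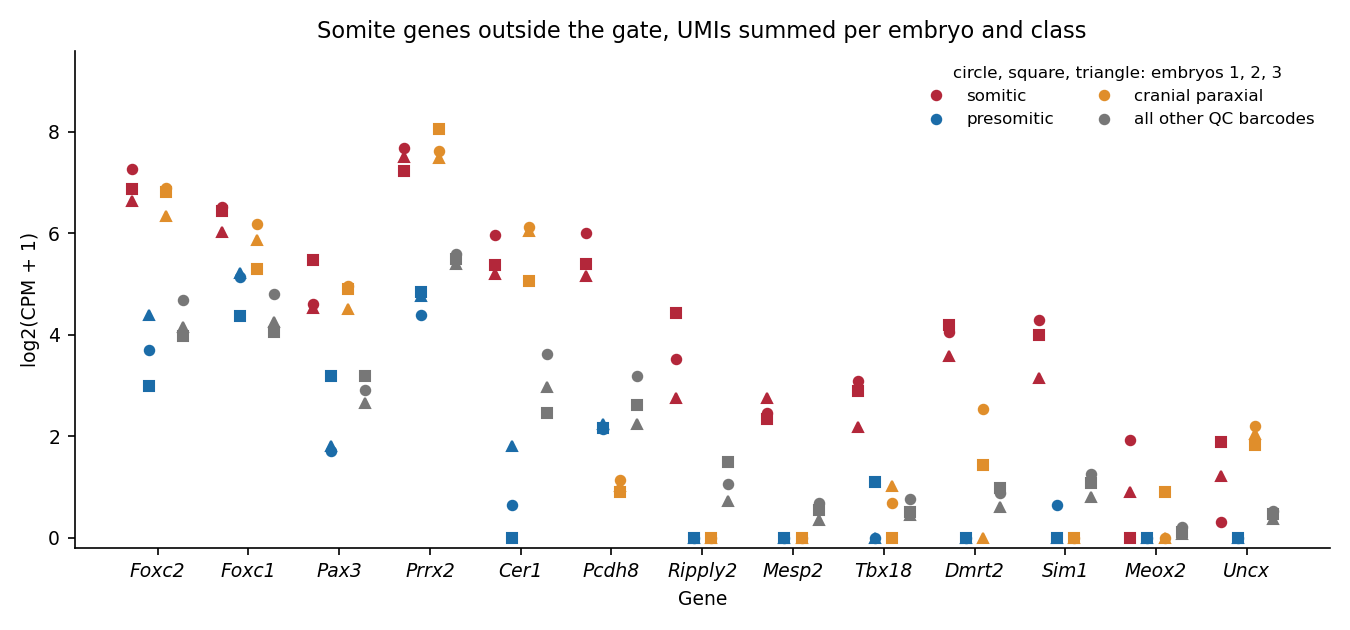
Level of 13 genes as log2(CPM + 1) in somitic cells, all other barcodes, presomitic cells and cranial paraxial cells, with 1 point per embryo and class. Foxc2 and Pax3 overlap between somitic and cranial paraxial cells, whereas Ripply2 and Mesp2 are at 0 UMIs in presomitic and in cranial paraxial cells.

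The promoters of Ripply2, Mesp2 and Dmrt2 are shown because these genes mark the new border and the maturing somite, and because Ripply2 and Dmrt2 were found in separate cells. In the GENCODE M21 annotation of GRCm38, Ripply2 (ENSMUSG00000047897) lies at chr9:87015537-87019917 (+), Mesp2 (ENSMUSG00000030543) at chr7:79810727-79813439 (+), Dmrt2 (ENSMUSG00000048138) at chr19:25672411-25678991 (+) and Foxc2 (ENSMUSG00000046714) at chr8:121116171-121118895 (+). The windows are RefSeq sequences of build GRCm38.p6, 250 bases before to 50 after the start of the gene, on the strand of the gene, namely chr9:87015287-87015586 (+), chr7:79810477-79810776 (+) and chr19:25672161-25672460 (+). Capitals mark matches to CANNTG, the E-box bound by bHLH factors, and to TCACAC, the core of the site bound by T-box factors. TAATTA, a homeodomain site, was also searched, on both strands as for the others.
Ripply2: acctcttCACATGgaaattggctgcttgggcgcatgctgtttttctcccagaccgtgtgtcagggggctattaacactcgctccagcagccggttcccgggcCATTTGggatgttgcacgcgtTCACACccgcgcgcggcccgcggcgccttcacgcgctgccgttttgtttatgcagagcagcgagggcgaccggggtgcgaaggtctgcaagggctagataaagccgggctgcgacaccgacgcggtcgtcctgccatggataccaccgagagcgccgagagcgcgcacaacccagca
Mesp2: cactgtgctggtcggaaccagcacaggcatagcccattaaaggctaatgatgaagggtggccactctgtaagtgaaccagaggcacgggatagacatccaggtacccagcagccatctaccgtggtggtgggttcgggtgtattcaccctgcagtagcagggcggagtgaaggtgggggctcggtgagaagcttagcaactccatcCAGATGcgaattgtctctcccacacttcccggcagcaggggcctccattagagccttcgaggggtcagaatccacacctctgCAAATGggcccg
Dmrt2: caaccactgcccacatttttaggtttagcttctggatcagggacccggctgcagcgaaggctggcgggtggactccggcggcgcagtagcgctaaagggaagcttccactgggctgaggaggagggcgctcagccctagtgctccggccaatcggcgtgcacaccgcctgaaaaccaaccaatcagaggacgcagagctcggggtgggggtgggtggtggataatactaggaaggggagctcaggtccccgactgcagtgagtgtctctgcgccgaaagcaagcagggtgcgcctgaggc
The Ripply2 window held 2 matches to CANNTG and 1 to TCACAC, none overlapping another, the Mesp2 window 2 matches to CANNTG, and the Dmrt2 window no match to any of the 3 motifs. Of 32851 promoters of the same length, 72.3% held CANNTG, 14.5% TCACAC and 5.29% TAATTA.

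Ripply2 and Dmrt2 were never found in the same somitic cell. Ripply2 was detected in 46 of the 427 (17, 22 and 7 in embryos 1, 2 and 3) and Dmrt2 in 44 (14, 21 and 9), and no cell held both, where the product of the shares in all 427 cells gives 4.74 cells. Tbx18 (44 cells) and Uncx (10 cells), genes of the anterior and posterior side of a somite, also shared no cell, but there the product gives 1.03 cells, so these numbers do not show that the genes keep apart. Mesp2 was found in 10 of the 46 cells with Ripply2, which was 21.7%, and in 4.46% of those without it, but in embryo 3 it was found in 0 of 7 cells with Ripply2 and in 5.77% of those without it. Pax3 was found in 31 of the 44 cells with Dmrt2, and Uncx in 5 of the 44. A gene without a UMI can still be expressed at this depth, and the split into cells with Ripply2 and cells with Dmrt2 was chosen after the values had been seen, so no test was made.

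The genes described next, picked after their values had been seen and with no count over all genes, had levels in the cells with Ripply2 and the cells with Dmrt2 that rest on 7 to 22 cells of each kind per embryo. Pcdh8 stood at 317, 269 and 231 CPM in the cells with Ripply2 of embryos 1, 2 and 3 and at 9.19, 0 and 29.4 CPM in those with Dmrt2. It was found in 41 of 46 cells with Ripply2 (89.1%) and in 2 of 44 with Dmrt2 (4.55%). Rspo3, a Wnt agonist gene, stood at 176, 278 and 396 CPM in them and at 94.2, 37.6 and 29.4 CPM in the cells with Dmrt2. Epha4 stood at 264, 143 and 189.6 against 48.3, 28.2 and 35.3 CPM. Lef1, the nuclear mediator of Wnt signals, stood at 449, 278 and 404 against 165, 122 and 153 CPM, and Dll1 at 62.5, 67.3 and 41.2 against 11.5, 9.40 and 23.5 CPM. None of these 4 genes overlapped between the groups. The opposite order was seen for Tcf15, a gene of the rule itself, at 120.3, 224 and 198 CPM with Ripply2 against 425, 595 and 453 CPM with Dmrt2. Arl4a, a small GTPase, stood at 44.0, 53.3 and 16.5 against 140.2, 157 and 129 CPM, Prrx1 at 18.5, 28.0 and 0 against 57.5, 59.5 and 58.8 CPM, and Foxd1, a forkhead factor, at 4.63, 19.6 and 0 against 55.2, 34.5 and 23.5 CPM. Each of them was higher with Dmrt2 in all 3 embryos. Foxc2 did not separate the groups, at 243, 174 and 173 against 218, 144 and 253 CPM. The cells with Ripply2 were shallower, with a median of 24518, 10342 and 14907 UMIs against 29420, 16432 and 16156, and the 337 cells with neither gene lay between the groups in every embryo for Rspo3, Epha4, Tcf15, Arl4a and Foxd1.

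**Figure D3:**
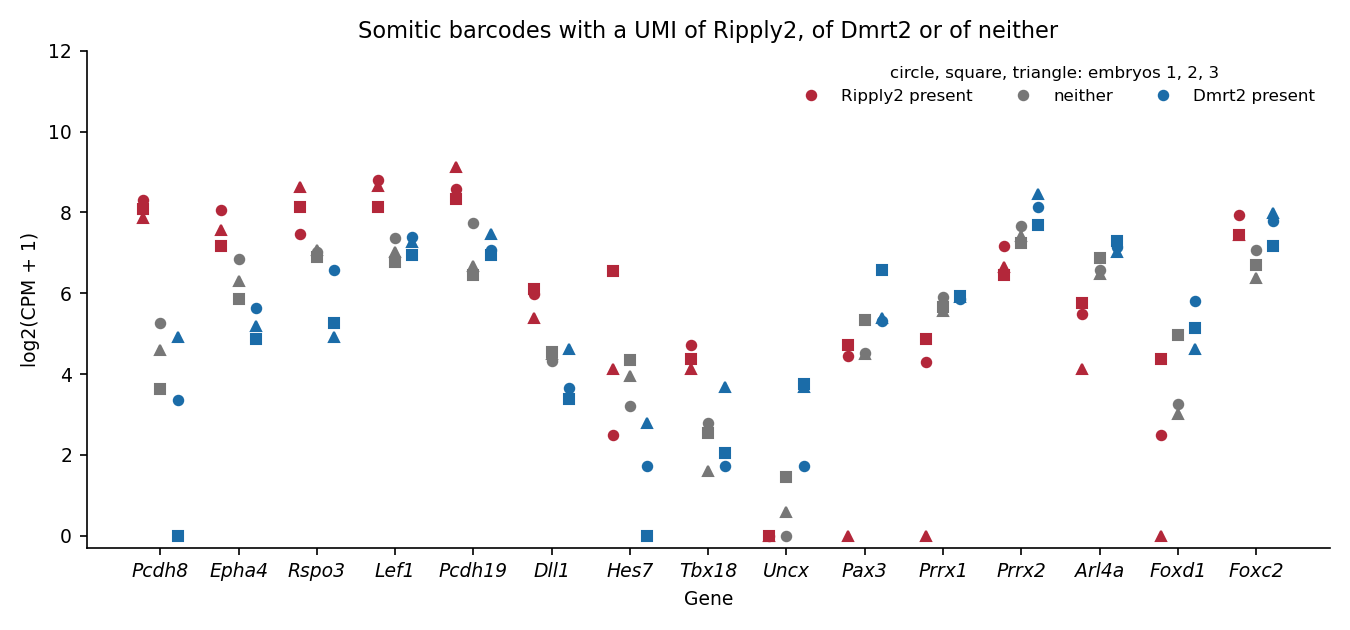
Level of 15 genes as log2(CPM + 1) in somitic cells with a UMI of Ripply2 (46 cells), with neither gene (337 cells) and with a UMI of Dmrt2 (44 cells), with 1 point per embryo. Pcdh8, Epha4, Dll1 and Rspo3 lie higher in the cells with Ripply2, and Prrx1, Arl4a and Foxd1 higher in those with Dmrt2.

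The posterior neighbours of somites are presomitic cells, taken here as barcodes with Tbx6 and Msgn1 and without Meox1, Sox2, Tbx1 or Noto (64, 53 and 44 barcodes). The genes of either rule were left untested. Barcodes with Tbx6 and all 3 genes required of somitic cells, which hold Meox1, fell in neither class. Of 9244 genes tested 486 passed (5.26%), 218 higher in the somitic cells (2.36%) and 268 lower (2.9%). Whether or not they passed, 1022 of the 9244 genes lay higher in the somitic cells without overlap between the classes, and 779 lower. With the embryo block 843 passed, 409 higher and 434 lower. Without embryo 1 the count was 221 and without embryo 3 it was 286. Thinned to 5000 UMIs per barcode before the rule was applied, 77 genes passed, and with at least 2 UMIs of each required gene 162. Thinning left 10, 18 and 16 presomitic barcodes in embryos 1, 2 and 3, and the stricter rule 9, 4 and 1.

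Several genes of border formation and of the dermomyotome had at most 3 UMIs in presomitic cells, while the somite polarity list was split. Of its 8 members tested Ripply2, Cer1 and Pcdh8 were higher in somitic cells and Dll1, Dll3, Lfng and Mesp1 lower. Ripply2, Cer1 and Pcdh8, with 0, 3 and 12 presomitic UMIs, were tested only because of their somitic counts. Their calls were fixed by the filter on low counts and are given as a description. Mesp1 stood at 33.1, 26.7 and 34.3 CPM against 82.3, 65.7 and 38.6 CPM (log2 fold change -1.07 ± 0.21, adjusted p = 0.0066), did not pass without embryo 1 or without embryo 2, and stood at 1.08 with thinned barcodes and at 0.18 with at least 2 UMIs of each required gene. With thinned barcodes 2 of 6 polarity genes were higher and none lower, and without embryo 1 there were 2 of each. Of 6 dermomyotome genes tested 4 were higher and none lower, and of 6 sclerotome genes likewise 4. The dermomyotome count takes in Dmrt2 and Sim1, which had 0 and 1 presomitic UMIs and were likewise tested only because of their somitic counts. Six4, at 36.4, 32.1 and 28.5 against 26.1, 18.4 and 24.9 CPM, did not pass (adjusted p = 0.31). With thinned barcodes only 1 dermomyotome gene could be tested and it did not pass. No presomitic barcode held a UMI of Ripply2, Mesp2 or Dmrt2. This covers only cells with Msgn1 and without Meox1, not the cells with Tbx6 and all 3 genes required of somitic ones. Against a floor of 3 UMIs over the presomitic sums, Ripply2 was at least 14.3-fold higher in somitic cells, Dmrt2 at least 17.2-fold and Mesp2 at least 5.30-fold. Genes with 1 to 3 presomitic UMIs are given as ratios with an exact interval for counting error. That ratio was 51.0 (9.0 to 2028) for Sim1, 21.3 (3.68 to 857) for Tbx18, 55.7 (18.9 to 271) for Cer1 and 77.7 (13.8 to 3085) for Wfdc21. Pcdh8, at 62.9, 41.3 and 34.7 CPM against 3.40, 3.46 and 3.74 CPM, was higher by 3.70 ± 0.35 on the log2 scale. Efnb2, an ephrin of the posterior side of somites, was higher by 3.40 ± 0.25, Arl4a by 3.37 ± 0.19, the nuclear receptor gene Nr2f2 by 3.06 ± 0.42, Irx1 by 2.91 ± 0.30, Pax3 by 2.91 ± 0.46 and Twist1 by 2.78 ± 0.24. Of these Efnb2, Nr2f2, Irx1 and Pax3, with 16, 9, 12 and 13 presomitic UMIs, were also tested only because of their somitic counts.

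The segmentation clock was lower in somitic than in presomitic cells. Of 17 tested genes of presomitic mesoderm and clock 11 were lower and 1, Pcdh8, was higher, with a median log2 fold change of -1.05 beside -0.01 over all genes tested. Pcdh8, with 12 presomitic UMIs, was tested only because of its somitic counts, and Hes5, with 26 somitic UMIs, only because of its presomitic ones. Hes7, the repressor at the core of the clock, stood at 7.28, 26.0 and 14.1 CPM in somitic cells and at 129.9, 105 and 149.6 CPM in presomitic cells (log2 fold change -3.10 ± 0.31, adjusted p = 3.69e-05). Dll1 stood at 22.8, 26.4 and 22.8 against 81.1, 85.3 and 71.0 CPM (log2 fold change -1.75 ± 0.14), and Rspo3 at 131, 129 and 139.7 against 521, 437 and 489.8 CPM (-1.89 ± 0.10). The groups did not overlap for any of the 3 genes. Dll3 (-1.65 ± 0.16), Lfng (-1.37 ± 0.35), Hes5 (-2.37 ± 0.45), Cited1 (-2.30 ± 0.29), Axin2 (-0.91 ± 0.20), Dkk1 (-1.04 ± 0.21), Snai1 (-1.07 ± 0.28) and Tbx3 (-1.05 ± 0.22) were also lower, though with at least 2 UMIs of each required gene Tbx3 stood at 1.45. Notch1, at 86.4, 56.8 and 61.9 against 66.4, 40.3 and 64.8 CPM, overlapped and did not pass. Without embryo 1, and likewise without embryo 3, 6 members were lower, and with thinned barcodes 3.

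The genes of the posterior growth zone, which feeds the presomitic mesoderm, were lower almost without exception, though fewer passed with thinned barcodes, as given below. Of 21 tested 19 were lower and none higher in somitic than in presomitic cells, with a median log2 fold change of -2.25, and the list had 10 lower and none higher against all other barcodes (19 lower with the block, none without embryo 3). Fgf4, an FGF ligand of the tail bud, stood at 0.470, 2.37 and 0.439 CPM in somitic cells and at 36.3, 18.4 and 19.9 CPM in presomitic cells (log2 fold change -4.59 ± 0.48). Wnt3a stood at 1.88, 0.677 and 2.20 against 38.6, 18.4 and 19.9 CPM (-4.09 ± 0.41), and Fgf8 at 8.22, 19.3 and 23.7 against 94.2, 85.3 and 106 CPM (-2.58 ± 0.28). No somitic value reached the lowest presomitic one for these ligands. T (brachyury), the T-box gene of the primitive streak, fell by 3.15 on the log2 scale (SE 0.23). The homeobox gene Evx1 (-3.82 ± 0.28), Fgf17 (-3.49 ± 0.35), Cdx4 (-2.75 ± 0.39), Cdx2 (-2.25 ± 0.27) and Cdx1 (-2.11 ± 0.15) followed, and so did the FGF targets Etv4 (-2.66 ± 0.26), Etv5 (-2.10 ± 0.24), Spry4 (-2.34 ± 0.34) and Dusp4 (-1.96 ± 0.15). Fgf4, Wnt3a, Fgf17 and Evx1, with 10, 15, 20 and 32 somitic UMIs, were tested only because of their presomitic counts. Their calls, which the count of 19 takes in, are given as a description. The smallest of the 19 changes was that of Wnt5a (-0.54 ± 0.14), which stood at 0.0513 with thinned barcodes and at 0.13 with at least 2 UMIs of each required gene. Dusp6 passed only with the block (-0.87, adjusted p = 0.007), and Cyp26a1 passed in neither fit. Among the genes outside the lists that fell most were the streak factor Mixl1 (-4.83 ± 0.38) and the neuropeptide genes Gal (-4.17 ± 0.43) and Sct (-3.74 ± 0.25). Mixl1 and Gal, with 13 and 40 somitic UMIs, were likewise tested only because of their presomitic counts.

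**Figure D4:**
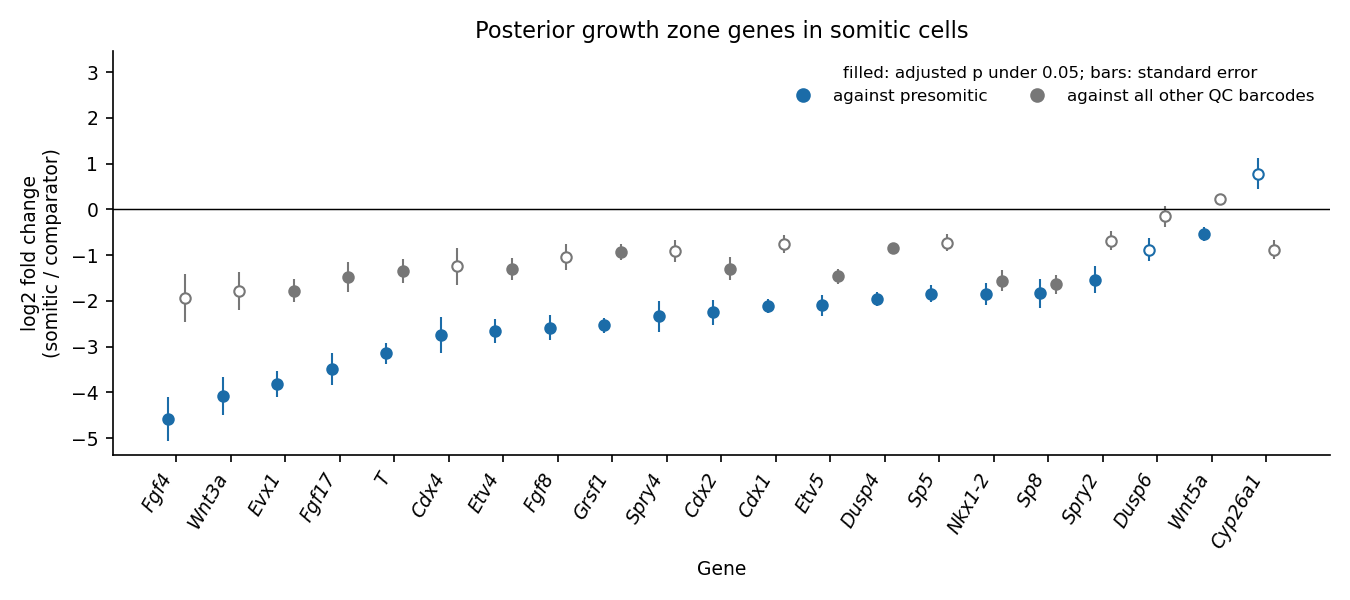
Log2 fold change ± SE of the 21 posterior growth zone genes in somitic cells against presomitic cells and against all other barcodes, with filled points at an adjusted p under 0.05. Against presomitic cells 19 genes lie below 0 with filled points, and against all other barcodes 10.

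Receptors and feedback genes of the FGF and Wnt pathways did not all follow their ligands. Fgfr2, which encodes an FGF receptor, stood at 20.2, 20 and 18.0 CPM in somitic cells and at 4.54, 3.46 and 3.74 CPM in presomitic cells (log2 fold change 2.22 ± 0.29), while Fgfr1 overlapped and passed only with the block (adjusted p = 0.0025). Of 16 tested members of the FGF list 10 were lower and Fgfr2 alone higher. Fgfr2, with 14 presomitic UMIs, was tested only because of its somitic counts. In the Wnt list 9 of 18 were lower and 4 were higher, the 4 being the receptor genes Fzd2 (1.63 ± 0.14) and Fzd7 (1.55 ± 0.29) and the secreted antagonist genes Sfrp1 (1.75 ± 0.22) and Sfrp5 (2.43 ± 0.46). The lower ones included Wnt3a, Wnt5b (-2.05 ± 0.25), the target gene Sp5 (-1.85 ± 0.18) and Tcf7 (-0.92 ± 0.16). Sfrp5, with 12 presomitic UMIs, was tested only because of its somitic counts, and Wnt3a only because of its presomitic ones. With thinned barcodes 8 members of the posterior growth zone list were lower.

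Hox genes encode the position of a cell along the body, with higher groups acting further back. Against presomitic cells 13 of 19 tested were lower and none was higher, with a median log2 fold change of -2.18. With thinned barcodes 2 of 5 tested were lower, and with at least 2 UMIs of each required gene 5 of 10. Hoxd1 (log2 fold change -0.37 ± 0.26) and Hoxa2 (-0.40 ± 0.23) overlapped and did not pass. Hoxb1 stood at 175, 92.7 and 146 against 262, 169 and 202 CPM (-0.65 ± 0.20) and was lower only with the block (adjusted p = 5.3e-05). Among the lower genes the log2 fold change was -0.64 ± 0.14 for Hoxb2, -1.02 ± 0.24 for Hoxb3, -2.40 ± 0.28 for Hoxb4, -3.12 ± 0.27 for Hoxa5, -2.57 ± 0.36 for Hoxb8 and -2.70 ± 0.40 for Hoxb9. Hoxa5, with 37 somitic UMIs, was tested only because of its presomitic counts. Hoxa7 (-0.56 ± 0.52) and Hoxc8 (-0.50 ± 0.74) did not pass and had presomitic values spread from 2.49 to 11.5 and from 0.567 to 15.0 CPM. Hoxb4 itself stood at 7.98, 24.0 and 19.3 CPM in somitic cells and at 83.4, 89.9 and 82.3 CPM in presomitic cells, without overlap. Against all other barcodes 2 of 34 tested Hox genes were higher, Hoxa2 among them, and 1 was lower (Hoxa5). With the block 4 were higher and 17 lower. The symbol Hoxd4 stood on more than 1 feature and was left out.

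Against the anterior neighbours the same cells had more Hox transcripts. Cranial paraxial cells were taken as barcodes with Tbx1 and Tcf15 and without Meox1, Tbx6, Msgn1, Sox2, Noto, Nkx2-5 or Isl1 (55, 70 and 54 barcodes). Of 12 Hox genes tested 5 were higher in somitic cells and none lower. Hoxb1 stood at 175, 92.7 and 146 CPM in somitic against 14.5, 30.0 and 15.5 CPM in cranial paraxial cells (log2 fold change 2.80 ± 0.28, adjusted p = 9.73e-05). Hoxa2 (2.90 ± 0.40), Hoxb3 (1.80 ± 0.40) and Hoxb2 (1.73 ± 0.21) were also higher. Hoxb4, at 7.98, 24.0 and 19.3 against 6.65, 16.3 and 12.4 CPM, overlapped and did not pass. The mean level of Hoxb2 and Hoxb3 in somitic cells lay below that of presomitic and above that of cranial paraxial cells, with a test on each side. Against presomitic cells Hoxb3 did not pass whichever embryo was left out, nor Hoxb2 without embryo 2 or without embryo 3. Against cranial paraxial cells Hoxb3 did not pass without embryo 1 or without embryo 2.

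**Figure D5:**
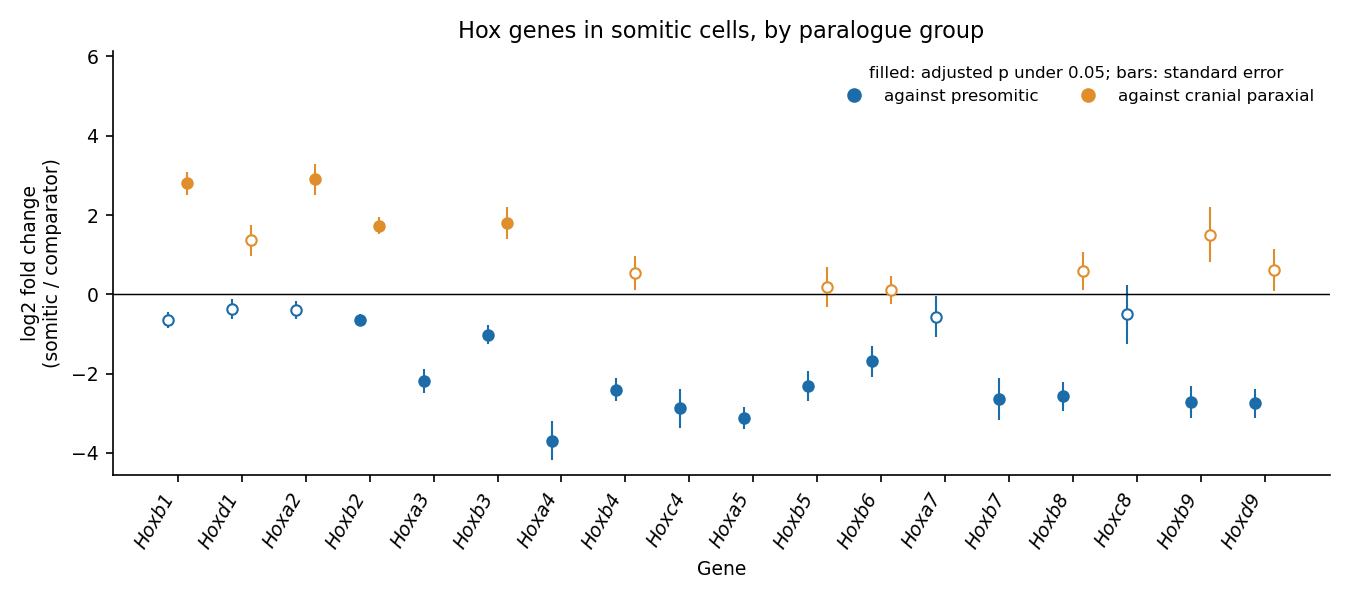
Log2 fold change ± SE of Hox genes in somitic cells against presomitic and against cranial paraxial cells, ordered by paralogue group, with filled points at an adjusted p under 0.05. Against presomitic cells the 13 filled points all lie below 0, and against cranial paraxial cells the 4 filled points, of groups 1 to 3, all lie above 0. The plot leaves out 1 of the 5 genes called there, which is not reported here.

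Some genes that make, carry and sense retinoic acid were higher in somitic cells, and others lower. Of 17 tested against all other barcodes 5 were higher and 2 lower, with a median log2 fold change of 0.17. Rdh10, the dehydrogenase of the first step of its synthesis, stood at 54.5, 45.3 and 27.2 CPM in somitic cells and at 13.9, 18.5 and 14.2 CPM in all others (log2 fold change 1.49 ± 0.22). Crabp1, a cytoplasmic binding protein, stood at 753, 635 and 686 against 202, 164 and 185 CPM (1.93 ± 0.09, adjusted p = 0.000123). Every somitic value was above every other value for both genes. The retinol receptor gene Stra6 (1.85 ± 0.17), the reductase gene Dhrs3 (1.71 ± 0.15) and Nr2f2 (1.23 ± 0.23) rose, and Crabp2 (-0.80 ± 0.13) and the receptor gene Rxrg (-1.79 ± 0.28) fell. Without embryo 3 only Crabp1 passed. Against presomitic cells 6 were higher and 4 lower of 14, among them the receptor gene Rarb (2.16 ± 0.35), itself a target of retinoic acid. Against cranial paraxial cells 5 were higher and 1 lower of 13. The lower one was Cyp26a1, which degrades retinoic acid. It stood at 20.7, 10.8 and 11.4 CPM in somitic cells, at 134, 85.6 and 108 CPM in cranial paraxial cells (-2.90 ± 0.23, adjusted p = 1.78e-05) and at 9.08, 8.07 and 7.48 CPM in presomitic cells (adjusted p = 0.308). Aldh1a1 and Cyp26c1 had no UMI in somitic cells.

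Against cranial paraxial cells 275 of 9172 genes passed (3%), 127 higher in somitic cells (1.38%) and 148 lower (1.61%). Whether or not they passed, 749 of the 9172 genes lay higher in the somitic cells without overlap between the classes, and 699 lower. With the embryo block 563 passed, 245 higher and 318 lower, and the count was 145 without embryo 1, 163 without embryo 2 and 101 without embryo 3. With thinned barcodes 108 passed, 61 of them higher. Foxc2, at 152, 116 and 99.3 against 117, 111 and 80.5 CPM (log2 fold change 0.23 ± 0.16), Pax3 (0.10 ± 0.27) and Prrx2 (-0.27 ± 0.15) overlapped and did not pass. Twist1 was lower, at 209.7, 150.2 and 151 against 334, 345 and 249.9 CPM (-0.87 ± 0.14). Of 6 dermomyotome genes tested 2 were higher and 1, Eya1 (-1.35 ± 0.28), was lower, with a median log2 fold change of 0.18. Of 6 sclerotome genes tested 0 were higher and 2 lower. Segmentation genes were higher. Pcdh8 stood at 62.9, 41.3 and 34.7 against 1.21, 0.856 and 1.03 CPM (5.40 ± 0.42), Pcdh19 was higher by 4.0 ± 0.30, Rspo3 by 2.87 ± 0.33 and Dll1 by 2.48 ± 0.29. Ripply2, Mesp2 and Sim1 had no UMI in cranial paraxial cells, so they were at least 15.8-fold, 5.86-fold and 18.8-fold higher in somitic cells against a floor of 3 UMIs over the class. Of the presomitic and clock list 8 of 15 were higher and none lower, and 5 of 7 polarity genes were higher, with 2 passing without embryo 1. Ripply2 in the polarity count and Sim1 in the dermomyotome count were tested only because of their somitic counts. So was Pcdh8, which is in the polarity and clock counts, and these calls are given as a description. The carbonic anhydrase gene Car3 (2.91 ± 0.25), the zinc finger gene Zfp503 (2.71 ± 0.20), Sparcl1 (2.70 ± 0.28) and the forkhead gene Foxb1 (2.49 ± 0.39) were also among the most raised.

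The genes that were lower in somitic than in cranial paraxial cells are described next, most of them from outside the cranial list. The homeobox gene Six2 stood at 2.58, 0.677 and 3.51 CPM in somitic cells and at 22.4, 30.8 and 13.4 CPM in cranial paraxial cells (log2 fold change -3.33 ± 0.43). At these low somitic levels Six2 was tested only because of its cranial paraxial counts, and its call is given as a description. Igfbp5, a secreted binder of insulin-like growth factors, stood at 30.5, 29.8 and 17.6 against 199, 232 and 119 CPM (-2.81 ± 0.23). Neither gene overlapped. Ebf2 (-2.36 ± 0.30), the natriuretic peptide receptor gene Npr3 (-2.23 ± 0.27), the protease inhibitor gene Timp3 (-2.14 ± 0.31), Irx3 (-1.92 ± 0.21) and Cdh11, a mesenchymal cadherin (-1.75 ± 0.18), were lower as well. From the cranial list of 7 tested members 2 were lower, among them the homeobox gene Otx2 (-1.67 ± 0.26), 5 with the block and none without embryo 3. Against presomitic cells 5 of 6 tested members of the cranial list were higher, Prrx2 (2.88 ± 0.17), Prrx1 (2.53 ± 0.26), Foxd1 (3.20 ± 0.66), Alx1 (1.85 ± 0.36) and Otx2 (1.79 ± 0.36), and 2 members passed without embryo 1. Foxd1, with 6 presomitic UMIs, was tested only because of its somitic counts.

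Intermediate and lateral mesoderm genes were partly on. Lhx1, a LIM homeobox gene of the early kidney field, stood at 52.1, 47.0 and 46.1 CPM in somitic cells and at 21.3, 17.4 and 20.5 CPM in all others (log2 fold change 1.32 ± 0.11). Gata6, at 108, 76.8 and 87.4 against 51.4, 45.1 and 51.3 CPM, was higher by 0.90 ± 0.12, and Osr1 by 1.00 ± 0.18. The 3 genes did not overlap between classes. The kidney gene Pax2 (-3.00 ± 0.27) and the ligand gene Bmp4 (-0.80 ± 0.15) were lower, Pax8 had no UMI in somitic cells and Wt1 had 4. Against cranial paraxial cells Osr1 (2.54 ± 0.34), Lhx1 (2.25 ± 0.20), Hand2 (1.27 ± 0.30) and Gata6 (1.09 ± 0.18) were higher, 4 of 8 tested, but with thinned barcodes Gata6 stood at -0.00479 and 1 member passed. Osr1 was lower than in presomitic cells (-0.91 ± 0.24).

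Hedgehog proteins from the notochord pattern the ventral somite, and BMPs act from the lateral side. Of 10 hedgehog pathway genes 4 were higher against all other barcodes and none lower. These were Gas1 (96.5, 71.4 and 58.8 against 35.2, 28.1 and 29.2 CPM, log2 fold change 1.32 ± 0.16), Boc (1.21 ± 0.26) and Cdon (0.87 ± 0.17), which encode coreceptors, and Ptch1, the receptor and target (129, 132 and 108 against 93.0, 82.3 and 94.0 CPM, 0.47 ± 0.10). The target Gli1, at 13.1, 8.12 and 5.71 against 6.44, 4.28 and 4.75 CPM, overlapped and did not pass (0.88 ± 0.28). With the block 6 of the 10 were higher and 0 lower. Without the block Boc, Cdon and Ptch1 did not pass whichever embryo was left out. Of 18 BMP genes the antagonist Fst, at 302, 275 and 275 against 129.8, 97.0 and 95.9 CPM (1.42 ± 0.11), was higher and Bmp2, Bmp4, Id1 and Msx1 were lower. With the block 2 of the 18 were higher and 8 lower.

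Markers of most other tissues were lower or did not pass. The cardiac list was not low, and part of the cranial paraxial list was higher. Of 10 cranial paraxial genes tested 4 were higher than in all other barcodes and 1 lower, with a median log2 fold change of 1.11. All 7 definitive endoderm genes tested were lower than in all other barcodes, 6 of 8 surface ectoderm genes and 6 of 9 neural plate genes, among them Six3 (-2.83 ± 0.23). Of 9 genes of the left-right organizer and notochord 5 were lower. The rule left out barcodes with Sox2 or Noto, so the calls of neural plate, organizer and notochord genes are a description. Shh had 6 UMIs, Fam183b 2 and Foxj1 2 over the 427 cells. Only Bicc1, which encodes an RNA-binding protein, was higher (29.1, 25.7 and 26.3 against 20.5, 18.7 and 19.7 CPM, 0.48 ± 0.10). None of 8 extraembryonic endoderm and none of 8 erythroid genes passed in edgeR, with median log2 fold changes of -1.78 and -2.50. An unadjusted p under 0.05 was reached by 3 and 0 of them, DESeq2 called 1 and 0, and with the block 8 and 8 were lower. Over all 15574 genes tested in edgeR 2952 reached an unadjusted p under 0.05 and 565 passed. None of 9 cardiac genes passed against all other barcodes in edgeR, 2 reached an unadjusted p under 0.05, DESeq2 called 1, and with the block 4 were higher and 1 lower. The summed level of the cardiac list was 213, 429 and 236 CPM in somitic cells of embryos 1, 2 and 3 and 204, 336 and 201 CPM in all others, with a median log2 fold change of 0.08. Its most abundant gene was Myl7, a myosin light chain gene, at 73.3, 146 and 80.8 against 71.7, 104 and 69.1 CPM. Against presomitic cells, where the list summed to 128, 134 and 108 CPM, 4 of 8 were higher and none lower, namely Actc1 (2.16 ± 0.49), Mef2c (1.73 ± 0.29), Isl1 (1.68 ± 0.27) and Myl7 (1.30 ± 0.31), and without embryo 2, and likewise without embryo 3, 2 were higher. The part of cardiac cells in these differences was not tested. Against presomitic cells 2 of 4 neural plate genes tested were also higher and 0 lower, Irx3 (1.73 ± 0.39) among them. Irx3 did not pass without embryo 1 or without embryo 3. Of 4 endothelial genes tested 1 was higher, Kdr (3.11 ± 0.52), and 0 lower. Kdr and the cardiac gene Actc1, with 7 and 16 presomitic UMIs, were tested only because of their somitic counts.

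No S phase, G2 or M phase gene of the lists passed in any of the 3 comparisons in edgeR without the block. Over all genes tested only 3.63, 5.26 and 3% passed, so 0 of 15 is near that share. An unadjusted p under 0.05 was reached by 2952 of 15574, 1310 of 9244 and 967 of 9172 genes. With the block 1170 of 16100 genes were higher against all other barcodes. Against all other barcodes none of 15 S phase and none of 15 G2 and M phase genes passed, 0 and 3 reached an unadjusted p under 0.05, DESeq2 called 0 and 1, and with the block 2 and 5 were higher. Against presomitic cells 0 and 0 reached an unadjusted p under 0.05, and against cranial paraxial cells 1 and 1, and DESeq2 called none in either, though with the block 1 S phase gene was higher against presomitic cells (Rrm2, 0.24, adjusted p = 0.041) and 1 G2 and M phase gene against cranial paraxial cells (Ube2c, 0.25, adjusted p = 0.006). Mki67, a proliferation marker, was found in 372 of the 427 somitic cells, a mean of 87.4% ± 5.21 (SD, n = 3), and in 86.9% ± 3.42 of all other barcodes. The inhibitor gene Cdkn1a stood at 8.92, 11.2 and 12.3 CPM in somitic cells, at 21.3, 24.1 and 22.8 CPM in all others (-1.09 ± 0.16) and at 46.5, 41.5 and 28.7 CPM in presomitic cells (-1.94 ± 0.23), and was lower in both comparisons. Of the list of CDK inhibitors and growth genes it was the 1 of 12 called against all other barcodes, where the block gave 2 higher and 6 lower. Against presomitic cells the cyclin gene Ccnd2 was also lower (-0.92 ± 0.15) and the inhibitor gene Cdkn1c higher (0.71 ± 0.18), of 10 tested. Without embryo 2, and likewise without embryo 3, Cdkn1a did not pass against all other barcodes, nor Cdkn1c against presomitic cells. Of the matrix list Vcan, a proteoglycan, was higher (0.73 ± 0.11) and Sparc lower (-0.57 ± 0.10) than in all others. In all 2 of 21 matrix genes were higher there and 1 lower, and with the block 5 were higher and 8 lower. Against presomitic cells Hapln1, a link protein of hyaluronan (2.81 ± 0.43), Fbn2 (2.32 ± 0.21), Vcan (1.27 ± 0.20) and Sparc (0.76 ± 0.13) were higher and Lamb1 (-0.64 ± 0.16) lower, of 16 tested.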

How the data were processed

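Each embryo gave 1 library, made with the 10x 3′ kit. The deposited matrices hold UMI counts per gene and barcode, which the authors made with Cell Ranger 3.1.0 on mm10 with EGFP added, per the labels and the study's methods. Barcodes with 1500 to 8500 genes (7500 in embryo 2) and at most 10% mitochondrial UMIs were kept. Scrublet (scanpy 1.11.5) marked at most 1 barcode per library as a doublet, so doublets were not removed, and leaving out the 6% of barcodes with the highest scores served as an alternative. In embryos 1, 2 and 3 these took in 4.05, 9.52 and 8.11% of somitic barcodes and 4.98, 5.72 and 5.95% of the others. The study also left out clusters that it took for doublets or empty droplets, a step not repeated here. Classes were cut by single genes as described, and the members and gene lists were chosen with earlier results of these data known. Counts were summed per embryo and class and tested with edgeR 4.0.16 (TMM, filterByExpr, quasi-likelihood test, R 4.3.3) with Benjamini-Hochberg adjustment at 0.05, without a block. Genes of the rules were left out. A gene with few UMIs in 1 class could pass the filter on low counts only through the class where it was high. The call of such a gene is a description, also where this is not said beside it. The embryo number pairs the sums because both come from the same animal, and their deviations correlated at 0.357, 0.314 and 0.142 against all other barcodes, 0.139, 0.256 and 0.133 against presomitic and 0.261, 0.235 and 0.136 against cranial paraxial sums. Genes named were the 20 highest and 10 lowest log2 fold changes against all other barcodes and the 10 highest and 10 lowest in the other comparisons, among genes that passed on the same side in 3 embryos at a mean of at least 20 CPM in the higher class, with the leading members of each list and all members of the somite lists. Further list members are named to complete a count, after their values were seen. On simulated counts with the depth of these sums, 78.7% of 4-fold changes were found against all other barcodes (15582 genes), 98.5% against presomitic (9249) and 100% against cranial paraxial cells (9177). Of 2-fold changes 43.5, 64.3 and 73.2% were found, and of 1.5-fold changes 25.4, 29.6 and 32.7%. Unchanged genes made up 3.06, 5.93 and 6.85% of the calls. Alternatives were DESeq2 1.42.0, other size factors, no filter, each embryo left out, thinning to 5000 UMIs, a stricter or looser rule and other barcode filters. The erythroid and extraembryonic endoderm classes used as background were set after seeing the data, since the planned erythroid class held 4 barcodes. Intervals and floors cover counting error only. A few genes that the naming rule picked are not reported here, though the counts of the lists include them.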

Additional observations from a re-analysis of the deposited data

Results flagged for a closer look

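The reference held a sequence for EGFP, which wild-type embryos should lack. Over all barcodes EGFP had 31 UMIs in embryo 1, 0 in embryo 2 and 32 in embryo 3, and 0 in the somitic barcodes. It is given here because no comparison used it, and its source was not tested.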

How the results depend on the processing

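The counts of genes called depended on the settings more than the directions did. With the embryo as a replicate block, 2963 genes passed against all other barcodes, 843 against presomitic and 563 against cranial paraxial cells, where the fit without it gave 565, 486 and 275. Leaving out 1 embryo gave 14 to 273, 221 to 395 and 101 to 163 genes. Against all other barcodes DESeq2 called 1180 genes and the removal of high doublet scores gave 1264. Without a filter on low counts 791 genes passed against presomitic and 530 against cranial paraxial cells, and with thinned barcodes 77 and 108. With at least 2 UMIs of each required gene 162 passed against presomitic cells, and 1.44% of barcodes were somitic in place of 1.96%. The share of calls that were higher was 48.5% against all other barcodes, and 38.6% without the filter, 36.9% without high doublet scores, 39.5% with the block, 41.3% with thinned barcodes and 78.6% of 14 calls without embryo 3. In the first 4 of these settings more genes were called in either direction, 304, 467, 1170 and 298 of them higher in place of 274. Against presomitic cells the share moved from 44.9% to 55.2% without the filter and to 53.7% with at least 2 UMIs of each required gene, and against cranial paraxial cells from 46.2% to 56.5% with thinned barcodes and 55.2% without embryo 1. Of the genes in the text, 61 of 85 called against all other barcodes, 56 of 104 against presomitic and 45 of 57 against cranial paraxial cells kept their call in every alternative that tested them, those that left out an embryo aside, and 11, 51 and 28 when those were counted too. Few log2 fold changes reversed. With thinned barcodes these were Hand2 against all other barcodes (-1.21), Mesp1 (1.08) and Wnt5a (0.0513) against presomitic cells, and Gata6 (-0.00479), Mef2c (-0.50) and Myl7 (-1.42) against cranial paraxial cells. With at least 2 UMIs of each required gene they were Mesp1 (0.18), Wnt5a (0.13), Tbx3 (1.45) and Ttr (3.46) against presomitic cells, where embryos 1, 2 and 3 held 9, 4 and 1 presomitic barcodes. The cause was not tested. Presomitic and cranial paraxial sums held few barcodes, so low genes were not tested there.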
